A study of Mus musculus with 3 samples.

Results

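The genes described here encode enzymes that remove superoxide and peroxides, namely the superoxide dismutases Sod1, Sod2 and Sod3, the glutathione peroxidases Gpx1, Gpx3 and Gpx4, catalase (Cat) and the peroxiredoxins Prdx1 and Prdx3, together with the selenium-binding protein gene Selenbp1. The 10 genes were chosen by name, with earlier results of these data known. All 10 were found among the 24698 genes of the merged count table. They were measured by Drop-seq, which catches single cells with barcoded beads in droplets and tags each captured transcript with a unique molecular identifier (UMI), during the conversion of testis cells to Leydig cells in culture. Leydig cells are the steroid-making cells between the seminiferous tubules.

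The starting cells were Sca1+/cKit- cells sorted from the dissociated testes of adult C57BL/6 males aged 8 to 12 weeks, seeded at 100000 cells in each well of a Matrigel-coated plate. They recovered in serum for 18 hours and were then expanded for 3 days with PdgfAA, PdgfBB and Fgf2, each at 10 ng/ml, and the hedgehog agonist SAG at 0.5 µM. The differentiation medium that followed kept these factors and added LiCl2 at 5 mM and the Notch pathway inhibitor DAPT at 10 µM. The study made 1 library each on days 4, 7 and 14 of culture, of which day 4 falls at the change of medium, and the libraries are called by their day. Libraries and days cannot be told apart, no test was possible, and every interval given is a 95% interval that covers counting error only.

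Superoxide dismutases turn superoxide into hydrogen peroxide, with Sod1 mainly in the cytosol, Sod2 in the mitochondrial matrix and Sod3 outside the cell. Catalase, glutathione peroxidases and peroxiredoxins then reduce hydrogen peroxide, and Gpx4 acts on lipid hydroperoxides in membranes. In Leydig cells, mitochondrial cytochrome P450 enzymes of steroid synthesis, among them Cyp11a1, can leak electrons to oxygen. Gpx1, Gpx3 and Gpx4 are selenoproteins, which carry selenocysteine, whereas Selenbp1 binds selenium without being one and is known as a methanethiol oxidase.

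The merged table held 2980 barcodes of day 4, 2171 of day 7 and 973 of day 14, with 12677110, 11627440 and 5324400 UMIs. Single barcodes held from 594 to 80524 UMIs, and no barcode was shared between libraries. Many barcodes had a near copy. A barcode that differed only in its last base from another of the same library made up 43.8% of the barcodes of day 4, 47.3% of day 7 and 51.8% of day 14. On day 14, 687 of 727 pairs of such related barcodes (94.5%) fell on the same side of the steroid enzyme limit used below, against 50.9% of pairs of unrelated barcodes. Joining related barcodes left 2027, 1414 and 601 joined barcodes. Joining does not alter a day's summed level, but it does alter shares of cells, which are therefore given both ways.

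Day 14 barcodes were divided by the summed UMIs of Cyp11a1, which makes pregnenolone from cholesterol, and Hsd3b1, which makes progesterone from pregnenolone. The 418 barcodes with at least 10 of these UMIs per 10000 (43.0%, interval 39.8–46.1%) are called steroidogenic and the other 555 low. Near the limit, 75 barcodes lay from 5 to under 10 and 45 from 10 to under 15, while 324 had no UMI of either gene. The same limit was reached by 33 barcodes of day 7 and 8 of day 4. Other Leydig markers, which did not enter the limit, followed it, as Insl3 stood at 716 UMIs per 1000000 UMIs (CPM) in low and 2902 CPM in steroidogenic barcodes. The low barcodes are therefore not devoid of Leydig markers, and Star, the cholesterol carrier of the mitochondrion, stood at 666 CPM in them.

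Levels are a gene's summed UMIs per 1000000 UMIs of a group, with exact Poisson intervals, and they are compared between groups for one gene at a time. A gene counts as past 2-fold when the ratio of its levels, with 1 CPM added to each, was at least 2 in either direction. At least 20 UMIs over both groups were required, which all 10 genes had in every comparison.

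From day 7 to day 14, 9 of the 10 genes were at a higher level and Gpx1 at a lower one. Past 2-fold and higher were Selenbp1, Gpx3 and Sod1, or 3 of 10 genes, where 10.1% of the 12656 genes tested were past 2-fold and higher. No member was past 2-fold and lower, where 14% of all genes were, and 24.1% of all genes were past it in either direction. The median log2 ratio of the members was 0.84, and that of all genes tested was −0.13. Because the members were chosen with earlier results known, these contrasts with all genes, here and below, are a description and no test. With median-of-ratios scaling, which moved the median of all genes to −0.02, Gpx4 and Sod2 crossed the 2-fold line too and 5 members were past it, where 1482 of 12656 genes were past it and higher and 23.9% in either direction.

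From day 4 to day 7, only Gpx3 was past 2-fold and higher, against 2.25% of 12954 genes. No member was past it and lower, against 2.76%, and 5.01% of all genes were past it in either direction. Here the median log2 ratio of the members was 0.19 against 0.09 for all genes. From day 4 to day 14, Gpx3, Selenbp1, Gpx4, Sod1 and Sod2 were past 2-fold and higher, 5 of 10 genes against 13.5% of 12712 genes. None was past it and lower, against 15.3%, and 28.8% of all genes were past it in either direction. Just outside that line lay Sod3 and Prdx3, with ratios of 1.97 and 1.96. Without the barcodes at or above the steroid enzyme limit, Sod2 was no longer past 2-fold, at a log2 ratio of 0.64, and Sod3 was, at 1.29. The comparisons between days share libraries, so they are not independent of each other.

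**Figure D1:**
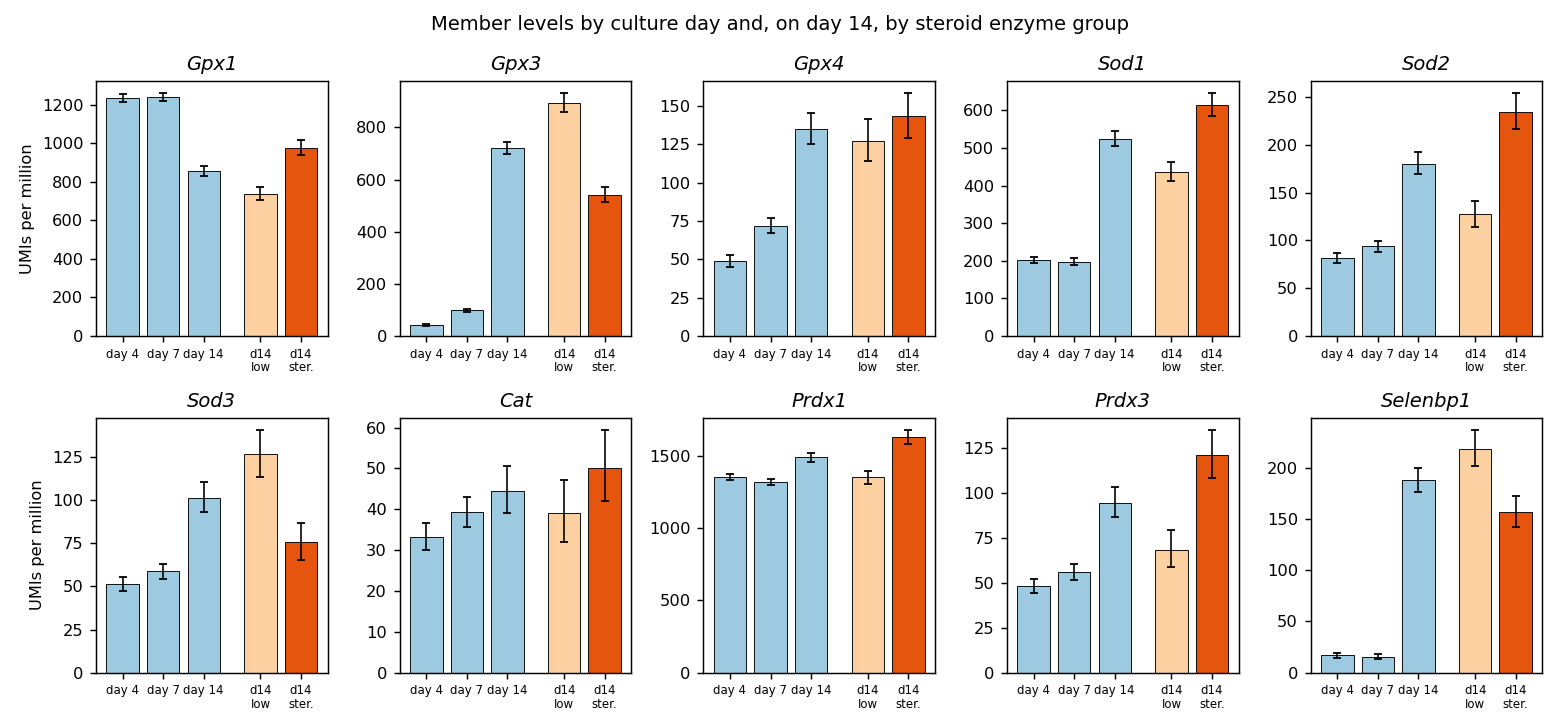
Bars give the CPM of each gene on days 4, 7 and 14 (blue) and, for day 14, in low (d14 low) and steroidogenic (d14 ster.) barcodes (orange), with exact Poisson 95% intervals and 1 library per day. Gpx3 went from 40.2 at day 4 to 720.1 at day 14, and Gpx1 from 1237 to 857, while Cat kept between 33.2 and 44.5.

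The superoxide dismutases lie on chromosomes 16 (Sod1), 17 (Sod2) and 5 (Sod3). Among them, Sod1 showed the largest difference between days. Its level was 203 CPM at day 4 (interval 195–211), 198 CPM at day 7 (189.8–206) and 525 CPM at day 14 (505–544). Days 4 and 7 did not differ beyond counting error, and day 14 stood 2.65 times above day 7 (interval 2.51–2.80). The step was present at every depth. When the barcodes of each day were sorted by UMI number into 10 equal parts, the Sod1 level lay between 186 and 245 CPM in the parts of day 7 and between 386 and 579 CPM in those of day 14. In GENCODE M21 on GRCm38, Sod1 (chr16:90220754-90226329, plus strand) overlaps Scaf4 on the opposite strand, and whether the counting used strand is not given in the sources used here.

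Sod2 stood at 81.4 CPM at day 4, 93.7 CPM at day 7 and 180.3 CPM at day 14. The ratio of day 14 to day 7 was 1.92 (interval 1.76–2.10), so the interval includes 2. Sod3, the secreted enzyme, stood at 51.5, 58.7 and 101 CPM, and its ratio of day 14 to day 7 was 1.73 (interval 1.54–1.94). For both genes the difference between days 4 and 7 was small, with ratios of 1.15 and 1.14. Among barcodes without a UMI of the smooth muscle actin gene Acta2, the log2 ratio of Sod3 was −0.09. The interval of that ratio, 0.678–1.31, includes 1.

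Gpx3, the secreted plasma glutathione peroxidase (chr11:54902453-54910377, plus strand), had a level that differed between all 3 days. It stood at 40.2 CPM at day 4 (interval 36.7–43.8), 98.8 CPM at day 7 (93.2–105) and 720.1 CPM at day 14 (697–743). The ratios were 2.46 for day 7 to day 4 (interval 2.22–2.74) and 7.29 for day 14 to day 7 (interval 6.82–7.79), and day 14 stood 17.9 times above day 4 (interval 16.3–19.7). Among barcodes without an Acta2 UMI, the ratio of day 14 to day 4 was 2.15 (interval 1.90–2.43). The day 4 level rested in large part on a single barcode, which held 200 of the 509 Gpx3 UMIs (39.3%) among 21881 UMIs of its own. That barcode also held 30 Star UMIs and a steroid enzyme score of 34.7 per 10000. Without it the day 4 level was 24.4 CPM and the log2 ratios to day 4 were 1.97 at day 7 and 4.83 at day 14, in place of 1.28 and 4.13. Without both it and the barcodes with Acta2, the ratio of day 14 to day 4 was 6.95 (interval 5.61–8.72).

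More barcodes carried Gpx3 as well. A Gpx3 UMI was seen in 6.28% of the barcodes of day 4, 16.5% of day 7 and 56.8% of day 14, at median depths of 2886.5, 3285 and 3272 UMIs. With each barcode thinned to 1500 UMIs, which left out 753, 429 and 179 shallower barcodes, the shares were 3.46%, 8.32% and 42.4%. After joining related barcodes they were 8.49%, 21.5% and 64.6%. The 3 ways of counting give the same order of days. RNA free in the droplets adds UMIs to cells that do not make a transcript, and Lyz2, a macrophage gene that steroidogenic cells should lack, was seen in 4.55% of the steroidogenic barcodes at a median depth of 3603 UMIs. The day 4 share of Gpx3 was a little above that share, which was 1.95% after thinning. The Lyz2 share comes from the day 14 library, so it sets no floor for Gpx3 on day 4.

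Gpx4 stood at 48.7 CPM at day 4, 71.6 CPM at day 7 and 135 CPM at day 14. Its ratio was 1.47 for day 7 to day 4 (interval 1.33–1.64) and 1.88 for day 14 to day 7 (interval 1.70–2.09). Gpx4 was thus higher at each step, with the uncertainty that a pseudogene, Gpx4-ps2, is annotated and its reads could be split with those of Gpx4. Gpx1, the glutathione peroxidase of cytosol and mitochondria, took the other direction. It stood at 1237 CPM at day 4 and 1241 CPM at day 7, and at 857 CPM at day 14, a ratio of day 14 to day 7 of 0.691 (interval 0.668–0.714). This ratio was 0.947 (interval 0.885–1.02) among barcodes without an Acta2 UMI.

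Catalase, the peroxisomal enzyme, was among the members that differed least. Its level was 33.2 CPM at day 4 (interval 30.1–36.5), 39.3 CPM at day 7 (35.8–43.1) and 44.5 CPM at day 14 (39.0–50.6), and the interval of the ratio of day 14 to day 7, 0.964–1.33, includes 1. The direction of that ratio turned, to a log2 value of −0.05, with barcodes thinned to 1500 UMIs. Among barcodes without an Acta2 UMI the direction turned too, with a ratio of 0.942 (interval 0.697–1.29). Against day 4, the day 14 ratio of Cat was 1.34 (interval 1.14–1.58). Prdx1, the cytosolic peroxiredoxin, stood at 1357, 1320.1 and 1491 CPM on the 3 days, a ratio of day 14 to day 7 of 1.13 (interval 1.10–1.16). Prdx3, the peroxiredoxin of mitochondria, stood at 48.1, 55.8 and 94.3 CPM, a ratio of 1.69 (interval 1.5004–1.90). Both peroxiredoxins differed little between days 4 and 7, with ratios of 0.973 for Prdx1 and 1.16 for Prdx3.

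Selenbp1 (chr3:94933056-94944758, plus strand) was the member with the largest ratio of day 14 to day 7. Its level was 16.8 CPM at day 4 (interval 14.6–19.2), 15.7 CPM at day 7 (13.5–18.1) and 188 CPM at day 14 (177–200.2). The intervals of days 4 and 7 overlap, and day 14 stood 12.0 times above day 7 (interval 10.3–14.2) and 11.2 times above day 4 (interval 9.65–13.0). Among barcodes without an Acta2 UMI, the ratio to day 4 was 2.06 (interval 1.63–2.63). A Selenbp1 UMI was seen in 4.73% of the barcodes at day 4, 5.34% at day 7 and 42.0% at day 14, and in 2.47%, 1.84% and 21.8% after thinning. After joining related barcodes the shares were 6.66%, 7.64% and 55.7%. The early shares lie near the 4.55% of Lyz2 in steroidogenic barcodes. That share belongs to another gene in the day 14 library, so it sets no floor for Selenbp1 on days 4 and 7. The close relative Selenbp2 had 1 UMI in all 3 libraries together. In the 10 parts by depth, Selenbp1 lay between 6.28 and 60.3 CPM at day 7 and between 139 and 300.3 CPM at day 14, and these ranges do not overlap.

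Sequence before the start sites was read from RefSeq on GRCm38.p6 for the members, of which 9 matched by symbol and Sod3 did not. It is shown for Selenbp1, Gpx3 and Sod1, the genes past 2-fold between days 7 and 14. It is also shown for Prdx1, whose window matched the same motifs as that of Sod1. Each stretch begins 250 bases before the RefSeq start and ends at the base before the first exon that GENCODE places in the window. The plus strand is printed from 5′ to 3′. Capitals mark matches, on either strand, to the core of the antioxidant response element, TGACNNNGC. They also mark the core of an SF1 site, searched as AAGGTCA, if present. The GC box was searched as the letters GGGCGG, and overlapping matches run together. The TATA box was searched as the letters TATAAA.
Selenbp1: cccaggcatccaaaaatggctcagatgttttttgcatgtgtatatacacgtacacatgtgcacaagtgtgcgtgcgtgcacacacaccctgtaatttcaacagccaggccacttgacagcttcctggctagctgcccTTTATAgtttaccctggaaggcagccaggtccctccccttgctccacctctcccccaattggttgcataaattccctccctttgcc
Gpx3: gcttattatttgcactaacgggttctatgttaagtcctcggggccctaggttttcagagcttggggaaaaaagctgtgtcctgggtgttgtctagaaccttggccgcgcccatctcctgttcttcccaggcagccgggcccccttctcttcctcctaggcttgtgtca
Sod1: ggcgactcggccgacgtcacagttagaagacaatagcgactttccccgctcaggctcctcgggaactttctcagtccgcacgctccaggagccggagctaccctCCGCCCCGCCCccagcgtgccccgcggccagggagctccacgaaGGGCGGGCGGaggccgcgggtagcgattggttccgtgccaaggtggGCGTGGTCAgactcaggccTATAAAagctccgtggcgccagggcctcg
Prdx1: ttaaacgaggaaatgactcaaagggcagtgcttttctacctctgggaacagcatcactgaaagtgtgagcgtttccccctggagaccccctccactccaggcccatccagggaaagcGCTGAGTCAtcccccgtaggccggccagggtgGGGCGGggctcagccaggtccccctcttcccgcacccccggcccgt
The stretches lie at chr3:94932833-94933055 for Selenbp1, chr11:54902604-54902771 for Gpx3, chr16:90220512-90220753 for Sod1 and chr4:116685349-116685543 for Prdx1, all of them on the plus strand. That of Gpx3 lies between GENCODE exons.

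The antioxidant response element core, the site that the transcription factor NRF2 is known to bind, was found in the windows of Sod1, from 56 to 48 bases before the start, and of Prdx1, from 133 to 125 bases before it. It occurred in 10.2% of all 32851 RefSeq windows of 250 bases. The SF1 core, bound by the Leydig and adrenal factor SF1, was in no member's window and in 4.08% of all windows. A GC box was found for 7 members, Gpx1 and Selenbp1 not among them, and in 32.7% of all windows. The TATA box letters were found for Prdx1, Prdx3, Selenbp1 and Sod1, and in 12.4% of all windows. The 9 members have 12 starts, and a member was counted if any of its windows matched. The shares are of single windows, so the member counts cannot be set directly against them. The Selenbp1 match lies 113 to 108 bases before the start, and the TATA match of Prdx1 and the GC box of Gpx3 lie beyond the printed ends. These are matches of letters, with no measurement of binding.

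On day 14, the members divided by direction between low and steroidogenic barcodes of the one library. Sod1, Sod2, Gpx1, Gpx4, Cat, Prdx1 and Prdx3 were higher in steroidogenic barcodes, and Gpx3, Sod3 and Selenbp1 were lower. No member was past 2-fold in either direction, where 3.2% of the 10376 genes tested were past it and higher, 5.98% past it and lower, and 9.18% either. The median log2 ratio was 0.31 for the members and −0.06 for all genes.

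Among the genes that were higher, Sod2 and Prdx3, whose enzymes are in mitochondria, had the largest ratios. Sod2 stood at 127 CPM in low barcodes (interval 114–141) and 235 CPM in steroidogenic barcodes (217–254), a ratio of 1.85 (interval 1.62–2.11). Prdx3 stood at 68.4 CPM (interval 58.8–79.0) and 121 CPM (108–135), giving a ratio of 1.77 (interval 1.47–2.13). The Prdx3 ratio passed 2-fold with equal weight per barcode, at a log2 value of 1.06, and also with barcodes thinned to 1500 UMIs. In these settings, 12.6% of 10376 genes and 11.4% of 6365 genes were past it in either direction. Sod1 stood at 436 and 615 CPM, giving a ratio of 1.41 (interval 1.31–1.52), and Gpx1 at 739.7 and 978 CPM, giving a ratio of 1.32 (interval 1.25–1.40). Prdx1 stood at 1353 and 1632 CPM, giving a ratio of 1.21 (interval 1.15–1.26). The intervals of Gpx4 (ratio 1.13, 0.971–1.31) and Cat (ratio 1.29, 0.987–1.68) include 1, and the direction of Cat turned, to a log2 value of −0.42, among barcodes of 2000 to 6000 UMIs. With equal weight per barcode, Cat stood at 40.7 CPM in low and 40.6 CPM in steroidogenic barcodes.

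The genes of secreted enzymes took the other direction. Gpx3 stood at 895 CPM in low barcodes (interval 859.7–932) and 541 CPM in steroidogenic barcodes (513–570.1), a ratio of 0.605 (interval 0.566–0.646). A Gpx3 UMI was seen in 58.6% of low and 54.5% of steroidogenic barcodes, at median depths of 3063 and 3603 UMIs, in 46.7% and 37.3% after thinning, and in 66.6% and 61.9% after joining. Sod3 stood at 127 and 75.6 CPM, giving a ratio of 0.597 (interval 0.498–0.713). Selenbp1, whose product is found in the cytosol, stood at 219 and 157 CPM, giving a ratio of 0.717 (interval 0.631–0.814). With the barcodes divided instead by Star plus Cyp17a1 at the same limit, the Selenbp1 direction turned, to a log2 value of 0.08, and Sod3 moved to −0.14. Gpx3 was lower under that division too, with a log2 value of −0.50.

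**Figure D2:**
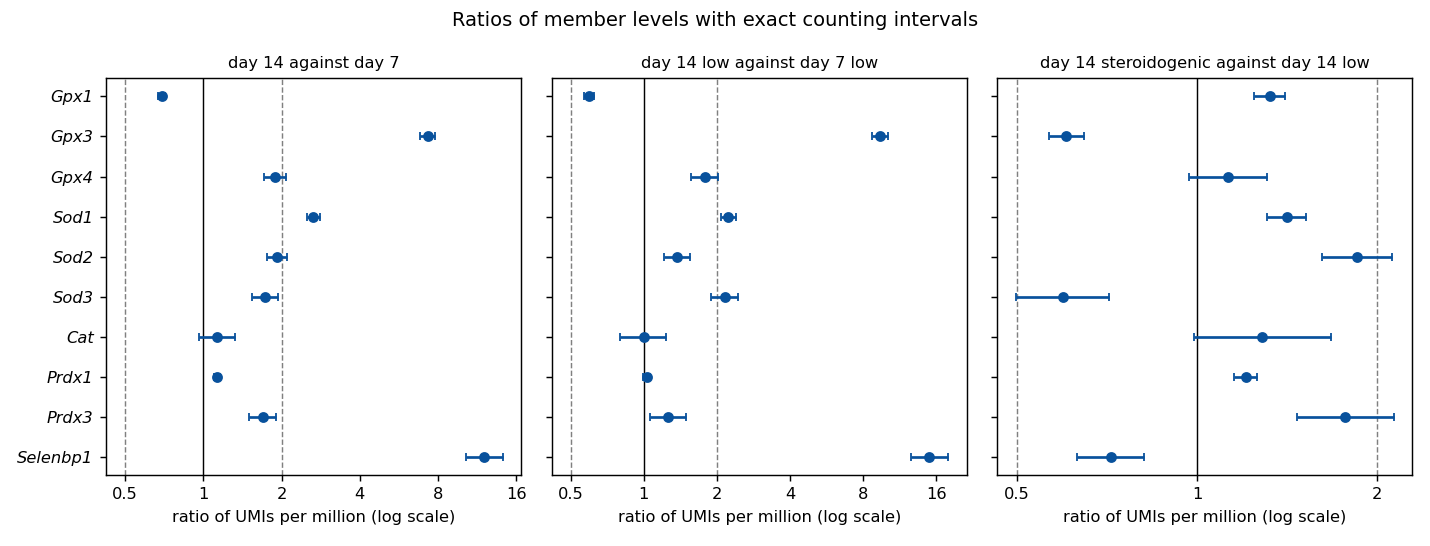
Points give the ratio of CPM for each gene, on log axes, with exact 95% counting intervals, for day 14 against day 7, for the low barcodes of the same days, and for steroidogenic against low barcodes of day 14, with dashed lines at 2-fold. Selenbp1 and Gpx3 lie far to the right in the first 2 panels, at 12.0 and 7.29 and at 14.97 and 9.38, and left of 1 in the last, at 0.717 and 0.605.

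A finer division of the day 14 barcodes by the steroid enzyme score shows where the levels differ. Gpx3 stood at 954 CPM in the 324 barcodes with a score of 0, 858 CPM from above 0 to under 10, 743 CPM from 10 to under 30, 589 CPM from 30 to under 100, and 259 CPM in the 112 barcodes at 100 and over. Each bin was lower than the one before, and the intervals of the last pair, 544–637 and 224–298, do not overlap. Sod3 was at 122 CPM at a score of 0 (interval 102–145) and 54.0 CPM at 100 and over (38.7–73.2). Selenbp1 went from 221 CPM (interval 193–251) to 116 CPM (92.9–143) between the same ends, with most of the difference in the last step.

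Sod2 showed a different shape. It stood at 113 CPM at a score of 0 and 136 CPM from above 0 to under 10, and then at 229, 231 and 245 CPM in the bins from 10 upward, so that the difference fell at the limit and not among the steroidogenic barcodes. Prdx3 had the same shape, with 71.7 and 66.3 CPM below the limit and 126, 127 and 107 CPM above it. Sod1 was higher in each bin than in the one before, from 432 and 438 CPM to 522, 631 and 693 CPM. Prdx1 went from 1251 to 1722 CPM, and Gpx1 from 716 to 1023 CPM in the fourth bin and 995 CPM in the fifth. Cyp17a1, a later enzyme of androgen synthesis that did not enter the score, stood at 11.6 CPM at a score of 0 and 3934 CPM at 100 and over.

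**Figure D3:**
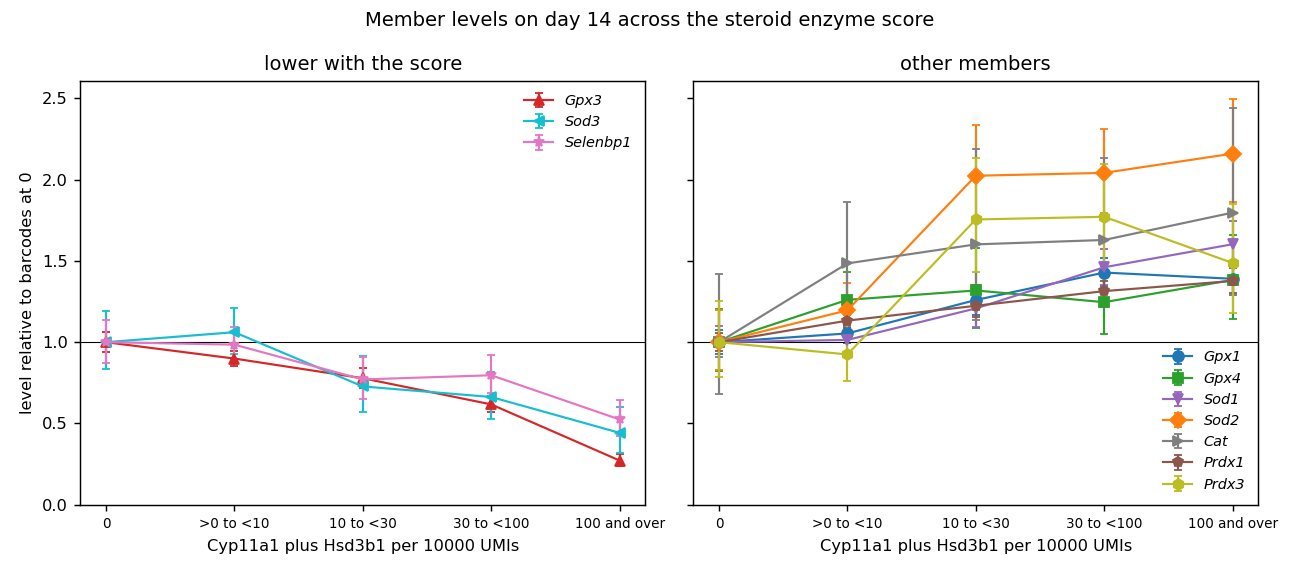
Points give each gene's level in day 14 barcodes, by bins of Cyp11a1 plus Hsd3b1 UMIs per 10000, divided by its level at a score of 0, with 95% counting intervals of the bin's own count. Gpx3 ends at 259 CPM from 954 CPM, whereas Sod2 steps from 136 to 229 CPM at the limit of 10.

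The higher day 14 levels were also looked for outside the steroidogenic barcodes. Among barcodes under the limit on both days, 4 members were past 2-fold and higher on day 14 than on day 7, namely Selenbp1, Gpx3, Sod1 and Sod3, against 8.87% of 12250 genes. None was past it and lower, against 12.8%, and 21.7% of all genes were past it in either direction. The ratio was 14.97 for Selenbp1 (interval 12.6–17.9), 9.38 for Gpx3 (8.73–10.1), 2.23 for Sod1 (2.07–2.39) and 2.15 for Sod3 (1.88–2.45). Among those low barcodes that also had no Acta2 UMI, the ratios were 2.66 for Selenbp1 (interval 2.12–3.37), 2.27 for Gpx3 (2.05–2.52), 1.91 for Sod1 (1.67–2.21) and 1.61 for Sod3 (1.25–2.08). Only Selenbp1 and Gpx3 were then past 2-fold, where 578 of 9482 genes were past it and higher and 14.6% in either direction. Among all low barcodes, with or without an Acta2 UMI, the ratio of Sod2 was 1.37 (interval 1.21–1.55) and that of Prdx3 1.26 (1.06–1.49). The Prdx3 direction turned, to a log2 value of −0.41, with barcodes thinned to 1500 UMIs. Cat (ratio 0.998) and Prdx1 (ratio 1.03) did not differ beyond counting error, and Gpx1 was at 0.595 (interval 0.567–0.623). For Gpx1, the difference was smaller among low barcodes without an Acta2 UMI, at a ratio of 0.801 (interval 0.738–0.869).

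Days 4 and 7 consisted mostly of barcodes with smooth muscle actin, and day 14 did not. Of the barcodes, 2629 of 2980 at day 4, 1785 of 2171 at day 7 and 90 of 973 at day 14 held an Acta2 UMI. The myofibroblast markers together stood at 4545 CPM at day 4, 4609.7 CPM at day 7 and 179.7 CPM at day 14, and Cnn1, 1 of the 6 markers, had no UMI on day 14. Mitosis markers went from 490.3 and 455 to 77.8 CPM. The levels of Gpx3 and Selenbp1 on the early days moved with this marker. On day 7, Gpx3 stood at 63.5 CPM in barcodes with an Acta2 UMI (interval 58.8–68.6) and 421 CPM in the 386 barcodes without one (385–461), and Selenbp1 at 8.11 CPM (6.48–10.0) and 84.6 CPM (68.6–103).

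On day 4 the same division gave 18.8 CPM with and 343 CPM without an Acta2 UMI for Gpx3. The barcode with 200 Gpx3 UMIs belonged to the latter, and without it their level was 106 CPM (interval 84.6–131). Selenbp1 stood at 11.5 and 92.2 CPM. On day 14 the difference was small, with Gpx3 at 621 and 736 CPM and Selenbp1 at 177 and 189.9 CPM. Barcodes without an Acta2 UMI were shallower, with medians of 1604 against 3114 UMIs on day 4 and 1936 against 3798 UMIs on day 7. Among barcodes of at least 3000 UMIs on day 7, Gpx3 stood at 62.6 CPM with and 436 CPM without it. The difference by Acta2 was about as wide in these deep barcodes as in all of them.

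Among barcodes without an Acta2 UMI, the ratio of day 14 to day 7 was 1.75 for Gpx3 (interval 1.59–1.92) and 2.24 for Selenbp1 (interval 1.82–2.80), in place of 7.29 and 12.0 among all barcodes. Sod1 moved less, from 2.65 to 2.17 (interval 1.92–2.46). Only Sod1 and Selenbp1 were then past 2-fold, where 834 of 10649 genes were past it and higher and 17.9% in either direction. For day 14 to day 4, Gpx3, Sod1, Sod2 and Selenbp1 were past it and Gpx4 was not, at a log2 ratio of 0.995, where 1263 of 10540 genes were past it and higher and 25.4% in either direction. For day 7 to day 4, the Gpx3 ratio was 1.23 (interval 1.06–1.43), but it was 3.98 (interval 3.16–5.07) without the barcode of 200 UMIs. With that barcode kept, no member was past 2-fold. Of all 8356 genes tested, 385 were past it and higher and 8.65% in either direction. The part of the cell makeup of each day in the differences between days was not tested beyond this division, which was chosen after values had been seen.

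**Figure D4:**
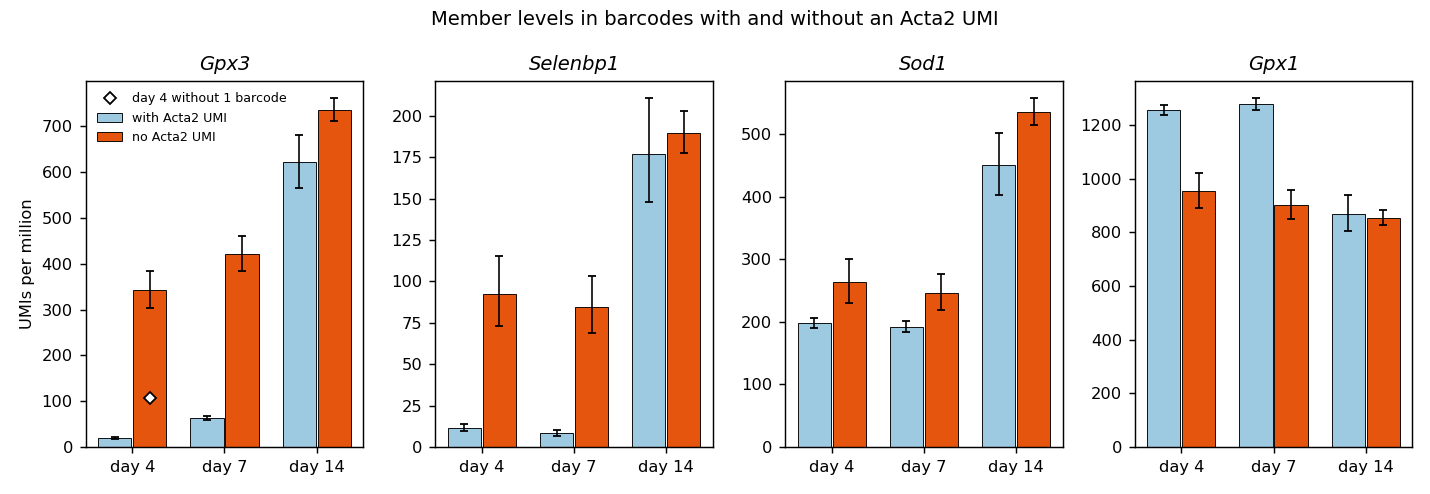
Bars give CPM in barcodes with (blue) and without (orange) an Acta2 UMI on each day, with exact Poisson 95% intervals, and the diamond gives the day 4 level of Gpx3 without the barcode that holds 200 of its UMIs. On day 7, Gpx3 stood at 63.5 with and 421 without Acta2, and Selenbp1 at 8.11 and 84.6, whereas Gpx1 stood at 1278 and 903.

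Markers of other cells were counted beside the day 14 division. The 9 macrophage markers summed to 419 CPM in low and 13.3 CPM in steroidogenic barcodes, and on days 4 and 7 to 10.7 and 27.5 CPM. On day 14 a UMI of any of them was seen in 33 low barcodes, with Lyz2 at 388 CPM, and in 31 steroidogenic barcodes, with Lyz2 at 7.22 CPM and 5 of the 9 markers at 0. Without the barcodes that held a macrophage marker, every member kept its direction between low and steroidogenic barcodes. Germ cell markers summed to 155, 30.3 and 62.7 CPM on the 3 days, and to 66.9 and 58.5 CPM in low and steroidogenic barcodes of day 14. From day 4 to day 7, 5 of the 6 tested were past 2-fold and lower, against 2.76% of all genes. Erythroid markers were at or near 0 everywhere. Myofibroblast markers stood at 325 CPM in low and 31.5 CPM in steroidogenic barcodes, and among barcodes without an Acta2 UMI Gpx3 stood at 974 CPM in low and 525 CPM in steroidogenic ones. Sertoli cell markers summed to 115, 514 and 626 CPM on the 3 days, and to 404 CPM in low and 853 CPM in steroidogenic barcodes. These sums were mostly Clu, at 82.6, 479 and 612 CPM on the 3 days, while Amh was at 0, Wt1 stood at 2.13, 1.38 and 1.13 CPM, and 3 of the 4 markers tested were lower on day 14 than on day 7. Endothelial markers summed to 83.1, 115 and 23.3 CPM on the 3 days, mostly from Cdh5 at 77.7, 111 and 22.3 CPM, and Pecam1 stood at 1.97, 2.24 and 0 CPM. The part of the germ cell, Sertoli and endothelial markers in the members' levels was not tested.

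Other genes of the same chemistry were counted from 8 lists of glutathione peroxidases, peroxiredoxins, thioredoxin and glutathione enzymes, NRF2 targets, copper and selenium handling, selenoproteins and peroxide sources. Of their 59 genes tested between days 7 and 14, 3 were past 2-fold and higher, against 10.1% of all 12656 genes. Past it and lower were 5, against 14%. The median log2 ratio of the 59 genes was 0.02. That median lies below the 0.84 of the members, but members and lists were both chosen with earlier results of these data known. Higher were Sepp1, Maob and Cybb, and lower were Txnrd1, Slc7a11, Maff, Sepw1 and Nox4.

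Sepp1, the selenoprotein that carries selenium between cells, stood at 113 CPM at day 4, 141 CPM at day 7 and 2767 CPM at day 14, a ratio of day 14 to day 7 of 19.6 (interval 18.6–20.7). Unlike Gpx3 and Selenbp1, it was higher in steroidogenic than in low barcodes, at 3912 against 1648 CPM. Txnrd1, thioredoxin reductase of the cytosol, stood at 315, 253 and 106 CPM on the 3 days. Nox4, an NADPH oxidase that makes hydrogen peroxide, stood at 6.55, 13.1 and 1.31 CPM, the last from 7 UMIs. Maff, a small MAF partner of NRF2, stood at 113, 43.0 and 15.6 CPM. Maob, a monoamine oxidase of the outer mitochondrial membrane, was higher on day 14 than on day 7, at 69.7 against 26.2 CPM, and stood at 53.4 CPM at day 4. Cybb, the phagocyte NADPH oxidase, had 14 UMIs on day 14, all in low barcodes, where the macrophage markers were.

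The other peroxiredoxins and the glutathione peroxidases Gpx7 and Gpx8 were within 2-fold between all days. Prdx2 stood at 317, 300.2 and 441 CPM, Prdx5 at 331, 291 and 418 CPM, and Gpx8 at 417, 441 and 581 CPM. All 4 other peroxiredoxins were higher on day 14 than on day 7, with a median log2 ratio of 0.39. The 6 genes of the NRF2 list had a median log2 ratio of −0.18, and Nfe2l2, which encodes NRF2, stood at 155, 162 and 142 CPM. Of the 9 steroid enzymes and their electron partners, 8 were past 2-fold and higher on day 14 than on day 7, against 10.1% of all genes. Among them was Fdx1, the ferredoxin that passes electrons to Cyp11a1, at 97.6 CPM at day 7 and 895 CPM at day 14. Low barcodes of day 14 held Fdx1 at 289 CPM and steroidogenic ones at 1514 CPM.

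Likeness of pattern was measured over 4 groups (day 4, day 7, and low and steroidogenic barcodes of day 14) as the distance between log2 levels centred on each gene's mean, among 2448 genes that reached 100 CPM in a group. Gpx3 was nearest to Wfdc1, at a distance of 0.49, and then to Slc38a5 and Lbp. Slc38a5, an amino acid transporter, stood at 11.2, 19.95, 314 and 176 CPM in the 4 groups. Selenbp1 was nearest to Mmd2 (distance 0.40), Rgs2 and Glul, of which Glul, glutamine synthetase, stood at 30.1, 34.9, 435 and 447 CPM. Both distances are wider than those of the other members, whose nearest genes lay at 0.03 to 0.17.

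The other members had close neighbours. Sod2 was nearest to Cox6a1, a subunit of mitochondrial cytochrome oxidase, at a distance of 0.05, and Cox6a1 stood at 802, 935, 1216 and 2327 CPM in the 4 groups. Prdx3 was nearest to the glycolytic enzyme gene Eno1 (distance 0.07), and next to Swi5 and Ndufs3, a subunit of respiratory complex I. Swi5 was also the second neighbour of Sod2. Sod1 was nearest to Man2a1, Sod3 to Sulf2, Gpx4 to Smim1, Gpx1 to Cops5, Prdx1 to Srp9 and Cat to Lpgat1. With 4 groups from 3 libraries, the neighbours are a description only.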

How the data were processed

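Single-cell transcript libraries of days 4, 7 and 14, 1 sample each, were analysed. The authors deposited UMI counts per gene and barcode. Per the submitters' processing notes, Picard 2.6.0, SAMtools 1.2 and STAR 2.5.2a were used. The study's methods name Drop-seq tools and GRCm38 but a different STAR version, and which version made the counts was not settled. The annotation release is not given in the sources used here. The merged table of the deposited counts was used as filtered by the authors, and 495 of its columns that belong to no sample here were left out. Counts were summed per day and group and scaled to UMIs per 1000000 UMIs, with exact Poisson intervals and exact binomial intervals for shares. Ratios carry exact conditional intervals. The 2-fold line was applied with a pseudocount of 1 CPM to genes with at least 20 UMIs. Doublets were not removed for the main results. Doublet scores were computed per day with scanpy 1.11.5, and 1 alternative left out the 6% of barcodes with the highest scores. With 1 library per group no p-value was computed. All 10 members are named, with list genes past 2-fold and each member's 3 nearest genes. The members and lists were chosen with earlier results of these data known. Alternatives were the scaling, pseudocount, filter, doublet scores, thinning, barcode joining, depth range and the division of day 14. The Acta2 division and the removal of the barcode richest in a member were added after the data were seen. Also not planned were barcode joining and leaving out barcodes with macrophage or germ cell markers or at the steroid enzyme limit or above. The scripts were tested on simulated data. Python 3.11.15, numpy 2.4.6, scipy 1.17.1 and pandas 2.3.3 were used.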

Additional observations from a re-analysis of the deposited data

Results flagged for a closer look

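The separate day 14 table held 327 barcodes that are absent from the merged table, with 123852 UMIs in all and a median of 319 UMIs. They enter no comparison above. A count of 0 there allows up to 24.2 CPM, and all 10 members stood above that level, 9 of them with the whole interval. In these shallow barcodes Gpx3 stood at 533 CPM, Selenbp1 at 137 CPM, Sod1 at 379 CPM, Sod2 at 161 CPM and Sod3 at 105 CPM. Gpx1 stood at 646 CPM, Gpx4 at 64.6 CPM, Prdx1 at 1227 CPM and Prdx3 at 72.7 CPM. Cat stood at 40.4 CPM, from 5 UMIs, with a lower bound of 13.1 CPM. Gpx3 stood at 12.4 CPM, from 2 UMIs, in the 320 such barcodes of day 4, and at 134 CPM, from 16 UMIs, in the 229 of day 7.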

How the results depend on the processing

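Of 870 member ratios recomputed under the alternatives, 730 stayed within the counting interval and 140 did not, and 843 kept their sign. Counts of members past 2-fold moved by over 1.5 times in 5 cases. Between days 7 and 4, the count was 0 among barcodes without an Acta2 UMI, where 8.65% of all genes were past 2-fold. Between days 14 and 7 it was 5 with median-of-ratios scaling. Between steroidogenic and low barcodes it was 1, Prdx3, both with equal weight per barcode and with thinning. Of all genes, 12.6% and 11.4% were past 2-fold in these settings. Between low barcodes of days 14 and 7 it was 2, Gpx3 and Selenbp1, without an Acta2 UMI. The causes were not tested. Over all genes, a pseudocount of 10 CPM called 1.47% between days 7 and 4 in place of 5.01%, and thinning moved the higher share of those calls from 44.99% to 55.93%. In the other comparisons, in the order days 14 and 7, days 14 and 4, steroidogenic and low, and low barcodes of both days, that pseudocount called 10.26%, 12.61%, 3.72% and 9.21% of genes. Without the filter on low counts, 737 genes were higher and 1304 lower between steroidogenic and low barcodes, in place of 332 and 620. Without an Acta2 UMI, 834 were higher and 1073 lower between days 14 and 7, in place of 1279 and 1771, and 578 and 811 between low barcodes, in place of 1086 and 1572. No paired analysis was possible because each day has 1 library. With 1 library per day, no spread between cultures could be measured, and near-copy barcodes make shares of barcodes less certain than their counts.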
